A study of Homo sapiens with 8 samples.

Results

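The genes described here supply and load the peptides of MHC class I molecules: B2M, TAP1, TAP2, TAPBP, TAPBPL, ERAP1, ERAP2, NLRC5, PSMB8 and PSMB9. They were chosen by name, and every probe set that the array annotation pairs with one of these symbols and no other was taken. That gave 26 of the 54675 probe sets on the array and 10 of the 19775 genes with a probe set of their own. RNA came from cultures of 2 established human multiple myeloma lines, JJN3 and RPMI-8226, which are malignant plasma cells kept in culture. Each line gave 1 array of cells infected with a lentivirus carrying an shRNA against IRE1, 1 with an shRNA against XBP1, 1 with a non-targeting (NT) shRNA and 1 of uninfected cells, 8 arrays in all. Cells were left with virus and 8 µg/mL polybrene for 16 h and were collected at 96 h, per the labels; the uninfected cultures received no virus. A treatment therefore has 2 arrays, 1 for each line, and each line is a single culture per treatment. Whether the cultures were independent repeats is not given in the sources used here, so the p-values below measure the spread between these arrays.

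Class I molecules carry peptides from proteins made inside the cell to its surface, where CD8 T cells read them. The immunoproteasome cuts proteins, the TAP transporter moves the fragments into the endoplasmic reticulum (ER), ER aminopeptidases trim them, and tapasin holds the empty heavy chain with beta-2-microglobulin until a fitting peptide is bound. Most of these genes answer to interferon gamma, and NLRC5 is a transactivator of class I genes. IRE1, encoded by ERN1, senses ER stress and, through its RNase, cuts an intron out of XBP1 mRNA; the XBP1 protein made from it is a transcription factor that enlarges the secretory pathway of plasma cells.

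The sequences below show an element found in promoters of 7 of these genes, the IRF element GAAANNGAA, to which interferon regulatory factors bind. Promoter windows of 300 bases (250 before the start of transcription and 50 after it) were taken from RefSeq, build GRCh38.p14, which held 14 promoters of 9 of the 10 genes, since some genes have more than 1 start. The element was on either strand of 7 of the 14 promoters, against 8.11% of all 35116 promoters listed. By gene it was in 7 of 9, B2M, TAP1, TAP2, TAPBP, ERAP1, ERAP2 and PSMB8, against 9.86% of 27305 genes. The stretches are printed in the direction of the gene, with the element in capitals, and overlapping elements are run together. Where the capitals begin with TTC, the element lies on the other strand.
B2M, chr15:44711349-44711411, plus strand: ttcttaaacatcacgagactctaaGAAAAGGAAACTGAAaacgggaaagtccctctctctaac
TAP1, chr6:32853799-32853861, minus strand: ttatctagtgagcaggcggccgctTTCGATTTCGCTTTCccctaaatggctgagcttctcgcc
TAP2, chr6:32838765-32838821, minus strand: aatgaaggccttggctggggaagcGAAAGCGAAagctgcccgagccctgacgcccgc
TAPBP, chr6:33314060-33314122, minus strand: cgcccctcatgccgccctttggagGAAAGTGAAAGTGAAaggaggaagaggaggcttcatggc
ERAP1, chr5:96807921-96807966, minus strand: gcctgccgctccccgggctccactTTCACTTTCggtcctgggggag
ERAP2, chr5:96876446-96876502, plus strand: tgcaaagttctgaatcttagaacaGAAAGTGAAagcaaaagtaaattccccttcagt
PSMB8, chr6:32844023-32844074, minus strand: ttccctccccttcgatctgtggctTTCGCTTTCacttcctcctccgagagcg

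B2M, TAP1 and TAPBP each had 2 overlapping elements in their stretch. The element lay 20 bases before the start in TAPBP, 30 in ERAP2, 58 in TAP2, 133 in TAP1 and 144 in B2M, counted to its first base, and it spanned the start in PSMB8. In ERAP1 it began at base 3 after the start. TAP2, PSMB8, TAP1 and PSMB9 are neighbours on chromosome 6, within the MHC region. The core TGACGTG of the unfolded protein response element, on either strand, was in 0 of the 14 promoters and in 1.97% of all promoters. The ER stress element (CCAAT, 9 bases of any kind, CCACG) was in 0 of the 14 and in 0.0769% of all. The Y box CCAAT was in 4 of the 14 promoters, against 34.6% of all promoters, and by gene in 4 of 9, B2M, ERAP1, PSMB9 and TAP1, against 39.7% of all genes. These are matches of letters, not measured binding sites.

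The array values are RMA values, taken as log2, and every probe set was centred on its own median over the 8 arrays. They therefore give differences between arrays. They give no level of a gene and no signal over background, so genes cannot be ranked by level, and the plasma cell label of the lines could not be checked by level. Of the 8 plasma cell markers, 4 were higher and 4 lower in JJN3, with IRF4 at 1.70 and CD38 at -4.72. The arrays labelled IRE1 shRNA do not all follow their label. ERN1 stood at 53.9% of the NT shRNA array on the JJN3 IRE1 shRNA array but at 129.8% on that of RPMI-8226 (64.1% of uninfected cells). XBP1 stood at 16.8% and 64.7% on these arrays. On the XBP1 shRNA arrays of JJN3 and RPMI-8226, XBP1 stood at 45.6% and 65.9% of NT shRNA, and ERN1 at 42.9% and 36.7%. The hybridisation controls, added to every array in the same amount, had a median of 0.42 on the JJN3 IRE1 shRNA array and -0.149 to 0.0879 on the other 7. The poly-A controls were highest on the RPMI-8226 XBP1 shRNA array (0.413).

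The widest differences of the class I loading genes lay between the lines. In JJN3, 8 of the 10 genes were higher than in RPMI-8226 and ERAP2 was lower, each read from its most variable probe set (the one with the largest SD over the 8 arrays); PSMB8 did not pass the test. That SD includes the difference between the lines, so the choice favours probe sets with a wide line difference. Sizes by gene therefore lean to the large side where a gene has several probe sets. B2M, ERAP1, NLRC5 and TAP1 differed by 2.20-fold to 7.08-fold. The other probe sets of B2M and ERAP1 differed much less, as given below. Over all 26 probe sets, 13 were higher and 5 lower (limma with treatment as a block, adjusted p under 0.05 over the 54613 probe sets tested). The lines differ widely as a whole: 56% of all probe sets passed this test, 22.8% higher and 33.3% lower, so the count of 18 of 26 says little by itself. The 26 probe sets had a median difference of 0.29 and all probe sets one of -0.14. By gene, with probe sets chosen by SD throughout, the medians were 0.75 for the 10 and -0.23 for all genes. Arrays of the lines did not overlap at all for 13 of the 26, against 48.7% of all probe sets. Each line is 1 line and its 4 arrays are different treatments, so these p-values speak of these 2 lines. The values come from whole cultures, in which fewer cells of a kind and less RNA per cell cannot be told apart.

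**Figure D1:**
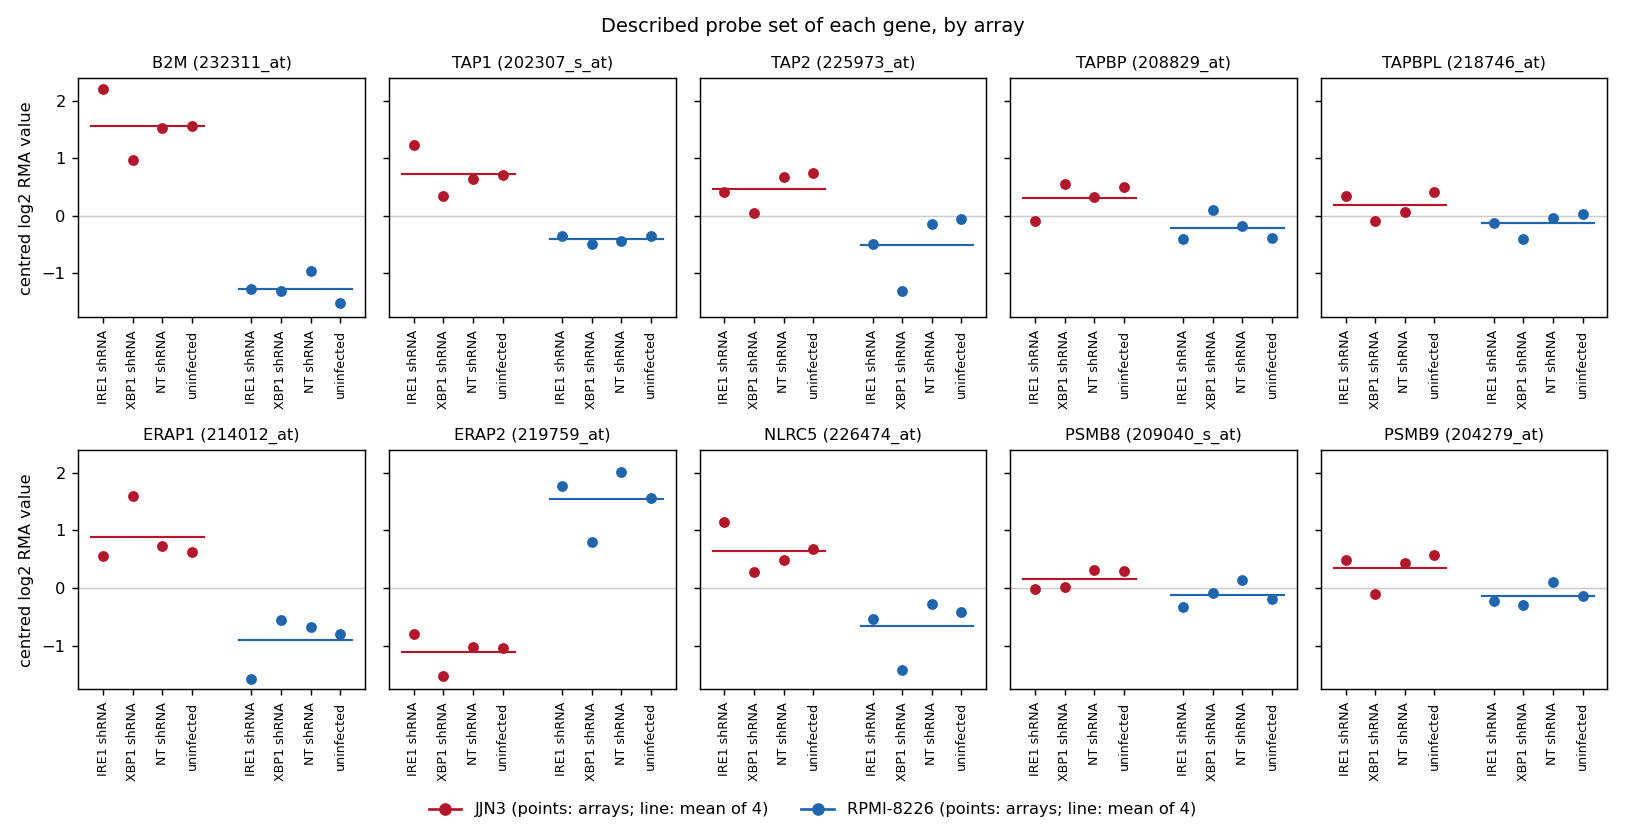
Each panel shows 1 gene by its most variable probe set; the y axis is the centred log2 RMA value, points are the 8 arrays in the order IRE1 shRNA, XBP1 shRNA, NT shRNA and uninfected, JJN3 left and RPMI-8226 right, and bars are the mean of the 4 arrays of a line. B2M, ERAP1, NLRC5, TAP1 and TAP2 are higher on all 4 JJN3 arrays, and ERAP2 is lower on all 4.

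NLRC5, the class I transactivator, had centred log2 values of 1.15 with IRE1 shRNA, 0.28 with XBP1 shRNA, 0.48 with NT shRNA and 0.68 uninfected in JJN3. In RPMI-8226 it had -0.54, -1.43, -0.28 and -0.41 in the same order. The lines did not overlap, and within each line the XBP1 shRNA array was lowest. NLRC5 (226474_at) was 2.48-fold higher in JJN3, a log2 difference of 1.31 ± 0.16 (SE; adjusted p = 1.53e-04).

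The catalytic subunits of the immunoproteasome differed less. PSMB9 had 0.48, -0.10, 0.44 and 0.56 on the JJN3 arrays and -0.22, -0.30, 0.10 and -0.13 on those of RPMI-8226. The ranges overlapped, because the JJN3 XBP1 shRNA array lay below the NT shRNA array of RPMI-8226. PSMB9 was 1.40-fold higher in JJN3 (0.48 ± 0.12, adjusted p = 0.00835). PSMB8 had -0.02, 0.02, 0.31 and 0.30 in JJN3 and -0.33, -0.08, 0.15 and -0.20 in RPMI-8226. Its difference of 0.27 ± 0.11 did not pass (adjusted p = 0.0586), with an interval of 0.03 to 0.51. It did pass in 4 alternatives, at 0.40 and adjusted p = 0.0126 after cyclic loess, and at 0.0284, 0.0201 and 0.0316 after quantile normalisation, with array medians taken off, and adjusted over genes.

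Both chains of the peptide transporter were higher in JJN3. TAP1 (202307_s_at) had 1.23, 0.35, 0.64 and 0.72 in JJN3 and -0.35, -0.49, -0.43 and -0.35 in RPMI-8226. All JJN3 arrays lay above all RPMI-8226 arrays, and the JJN3 arrays were further apart (SD 0.37 in JJN3 and 0.07 in RPMI-8226). TAP1 was 2.20-fold higher in JJN3 (1.14 ± 0.13, adjusted p = 9.13e-05). TAP2 (225973_at) had 0.42, 0.05, 0.67 and 0.74 in JJN3 and -0.50, -1.31, -0.13 and -0.05 in RPMI-8226, again without overlap. It was 1.96-fold higher in JJN3 (0.97 ± 0.12, adjusted p = 1.61e-04). The other 3 TAP2 probe sets did not show this size: 204769_s_at differed by 0.31 (adjusted p = 0.0455), 204770_at by -0.18 and 208428_at by -0.13. The mean of the 4 probe sets differed by 0.24 (adjusted p = 0.0265).

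Tapasin, TAPBP, bridges the transporter and the empty class I molecule. Its probe set 208829_at had -0.09, 0.55, 0.33 and 0.49 in JJN3 and -0.41, 0.09, -0.18 and -0.38 in RPMI-8226. In both lines the IRE1 shRNA array was lowest and the lines overlapped. TAPBP was 1.45-fold higher in JJN3 (0.54 ± 0.12, adjusted p = 0.00398). Its probe set 1555565_s_at differed by 0.29, 210294_at by -0.06, and the mean of the 3 by 0.25 (adjusted p = 0.0269). TAPBPL, the tapasin relative also called TAPBPR, edits the peptides of class I molecules. With 218746_at it had 0.34, -0.09, 0.06 and 0.42 in JJN3 and -0.12, -0.40, -0.04 and 0.04 in RPMI-8226, and the lines overlapped. TAPBPL was 0.31 higher with 218746_at and 0.41 higher with 218747_s_at (adjusted p = 0.0304 and 0.00867).

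The ER aminopeptidases went opposite ways. ERAP1 (214012_at) had 0.56, 1.60, 0.73 and 0.62 in JJN3 and -1.57, -0.56, -0.68 and -0.80 in RPMI-8226. The lines did not overlap, and ERAP1 was 3.44-fold higher in JJN3 (1.78 ± 0.15, adjusted p = 1.39e-05). The other 4 ERAP1 probe sets differed by -0.04 to 0.35 and none passed. The mean of the 5 differed by 0.46 (adjusted p = 0.00519). ERAP2, which trims the same kind of precursor with another preference, was lower in JJN3 with each of its 5 probe sets. With 219759_at it had -0.80, -1.53, -1.03 and -1.05 in JJN3 and 1.78, 0.80, 2.01 and 1.55 in RPMI-8226. It was 6.24-fold lower in JJN3 (-2.64 ± 0.13, adjusted p = 3.41e-07), the smallest adjusted p of the 26 probe sets. Probe sets 227462_at and 235104_at differed by -1.99 and -1.57, and 1554273_a_at and 1554272_at by -0.59 and -0.33. The last lost its call after cyclic loess (-0.20, adjusted p = 0.152) and with array medians taken off (0.0875). The mean of the 5 was -1.42.

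B2M is beta-2-microglobulin, the light chain without which class I molecules do not reach the surface. Its probe set 232311_at had 2.20, 0.96, 1.52 and 1.57 in JJN3 and -1.27, -1.30, -0.96 and -1.52 in RPMI-8226, a 7.08-fold difference (2.82 ± 0.19, adjusted p = 2.41e-06). The other 2 B2M probe sets differed much less, by 0.29 and 0.31 (1.22-fold and 1.24-fold, adjusted p = 0.0298 and 0.0209), and the mean of the 3 by 1.14. All 3 separated the lines without overlap. Which of these sizes holds for B2M mRNA was not tested.

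**Figure D2:**
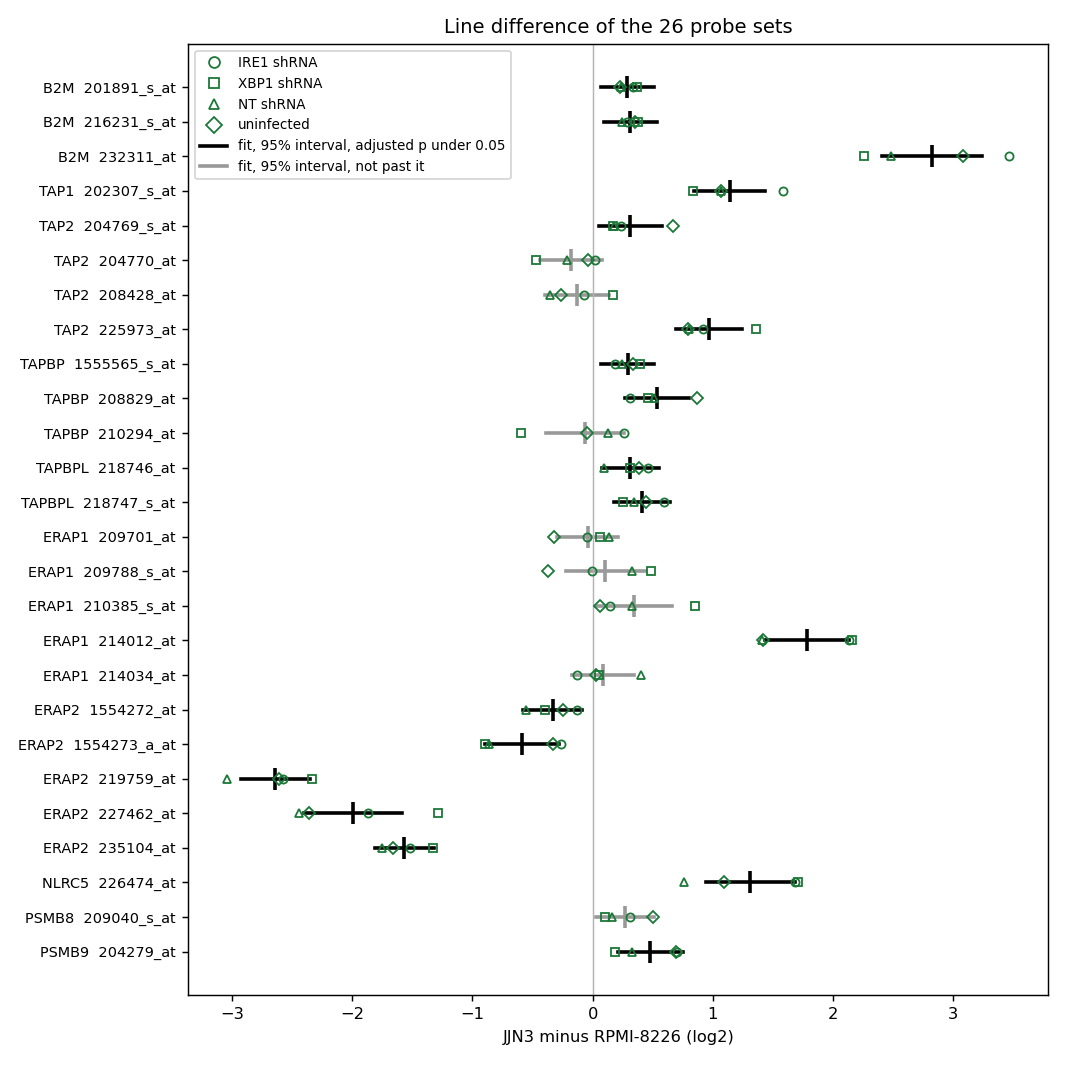
The x axis is the JJN3 minus RPMI-8226 difference (log2) of each of the 26 probe sets; bars are the limma estimate with its 95% interval, black where the adjusted p is under 0.05, and symbols are the differences between arrays of 1 treatment. The 5 ERAP2 probe sets lie left of 0 in all 4 treatments, and 1 probe set each of B2M and ERAP1 lies far to the right of the other probe sets of its gene.

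The calls of the smaller line differences were less secure, though some of these differences were even over the treatments. B2M 216231_s_at differed by 0.24 to 0.38 within the 4 treatments and TAPBP 1555565_s_at by 0.18 to 0.40. With treatment as a block, leaving out 1 array also takes its partner in the other line out of the comparison. Fewer residual degrees of freedom then remain. The calls of B2M 201891_s_at and 216231_s_at, TAP2 204769_s_at, TAPBP 1555565_s_at, TAPBPL 218746_at and ERAP2 1554272_at were lost when single arrays were left out. The widest move was in TAP2 204769_s_at, at 0.20 (adjusted p = 0.204) without either uninfected array. The count of genes called was 8 to 10 of 10 in every alternative tried. Scaling also moves the balance of the lines: of all probe sets called, 40.6% were higher in JJN3, against 48.7% after quantile normalisation, 50.6% with array medians taken off and 53.3% after cyclic loess. After cyclic loess the median of all probe sets was -0.01, against -0.14 as deposited. Among the 26, 15 were then higher and 4 lower, and TAP1 stood at 0.80 and ERAP2 219759_at at -3.27. Quantile normalisation and cyclic loess were run on the centred values, which hold no level. They therefore scaled differences between arrays, unlike the usual scaling of signal levels.

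The rest of the class I pathway was read from lists of genes with defined roles, in the same fit. Each gene was read from 1 probe set, its most variable, and its other probe sets are not given. As for B2M and ERAP1, other probe sets of a listed gene may differ less. Among all genes, 5018 of 19775 were higher (25.4%) and 8597 lower (43.5%) in JJN3. Of the class I heavy chains, which bind the peptide, 4 of 5 measured were higher in JJN3 and none lower: HLA-B by 1.05, HLA-C by 1.04, HLA-F by 1.16 and HLA-G by 0.43. HLA-E differed by 0.11 (adjusted p = 0.381). Heavy chain genes are alike in sequence and their probe sets may share signal. Of the loading chaperones and glycoprotein quality control genes, 3 of 4 were higher: calreticulin CALR by 0.52, the oxidoreductase PDIA3, which pairs with tapasin, by 0.67, and UGGT1, which marks misfolded glycoproteins, by 0.95.

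Other groups of the pathway were mixed. Of 5 proteasome genes, PSMB7 (1.05) and the immunoproteasome subunit PSMB10 (0.53) were higher and the activator subunit PSME1 was lower (-0.30); the call of PSME1 was lost in 11 of 14 alternatives and that of PSMB10 without either IRE1 shRNA or uninfected array (0.42 and 0.44). Of 7 transcription factors of class I genes, RFX5 and RFXANK, subunits of the RFX complex, were higher by 1.58 and 0.32. The third subunit, RFXAP, was lower (-0.78), as were IRF1 (-0.67) and IRF2 (-0.42), which bind the element shown above. IRF1 lost its call without either NT shRNA array (-0.41), either uninfected array, or with array medians taken off. RFXANK lost it in 6 of 14 alternatives, and IRF2 after cyclic loess (-0.27) and without treatment in the fit (adjusted p = 0.0548). Of 5 cytosolic peptidases, TPP2 (-1.40), THOP1 (-0.69) and BLMH (-0.50) were lower and NPEPPS (0.61) was higher.

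Interferon response genes did not differ 1 way between the lines. Of 17 measured, GBP1 (3.17), IRF9 (1.60), XAF1 (1.30) and SP110 (0.95) were higher in JJN3, and OAS1 (-2.99), UBE2L6 (-1.26), IFI6 (-1.17), ISG15 (-0.98) and MX1 (-0.30) were lower. MX1 lost its call in 11 of 14 alternatives. The list median was 0.10. Markers of other cell types were not raised in JJN3. Of T and NK cell markers 0 of 6 were higher and 3 lower, and of myeloid markers 0 of 4 and 2. Stromal markers gave 0 of 4 higher and 3 lower, B cell markers 0 of 3 and 2, and erythroid markers 0 of 2 and 1. Of all genes 25.4% were higher and 43.5% lower, so the counts of lower markers say little. Centred values do not show whether a marker is expressed.

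**Figure D3:**
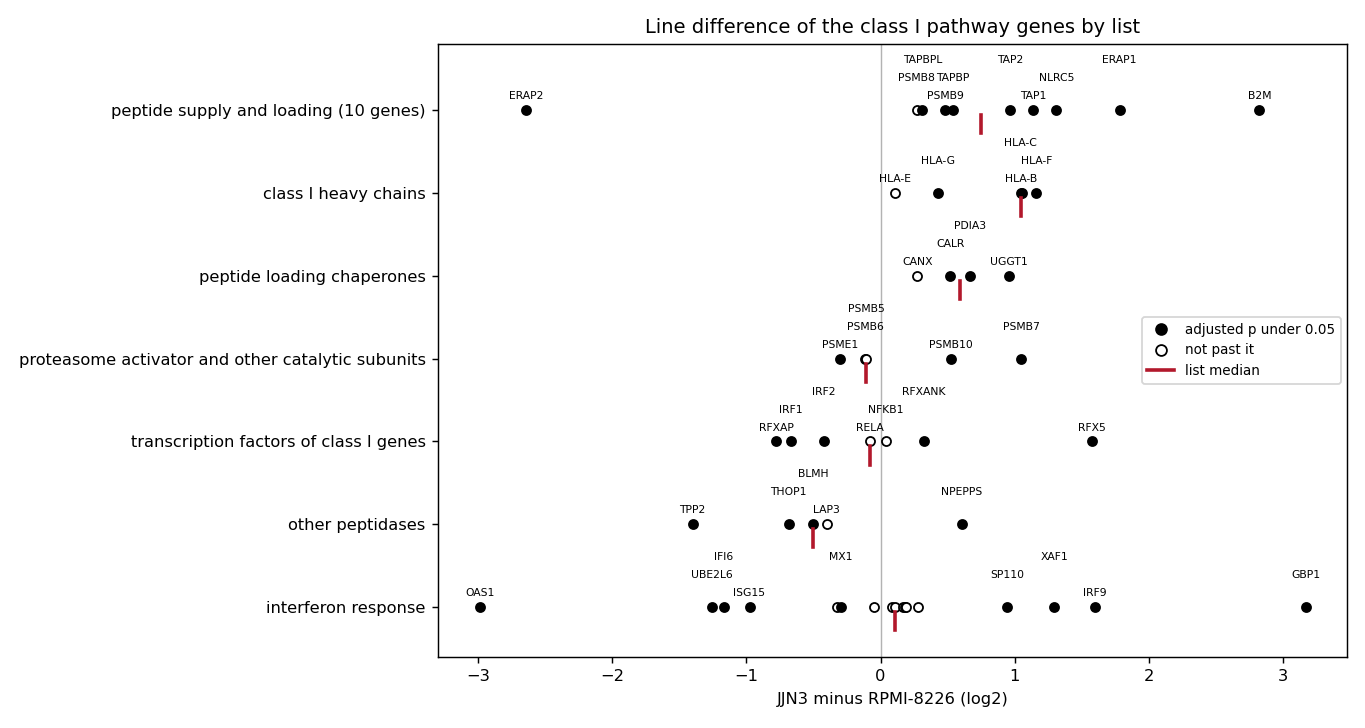
The x axis is the JJN3 minus RPMI-8226 difference (log2), 1 point per gene, filled where the adjusted p is under 0.05; rows are the 10 genes and 6 lists of the pathway, and the red bar is the median of a row. In the interferon row only filled points are named. Heavy chains and loading chaperones lie right of 0, and interferon genes spread from -2.99 to 3.17.

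XBP1 shRNA against NT shRNA asked whether loading genes change when XBP1 is targeted, on arrays where ERN1 also stood below NT shRNA. TAP2 (225973_at) fell to 53.9% of NT shRNA, a difference of -0.89 ± 0.17 (SE, n = 2 lines; limma adjusted p = 0.0493). It fell by 0.61 on the log2 scale in JJN3 and by 1.17 in RPMI-8226. Of the 26 probe sets 1 passed, this one, against 1.21% of all probe sets. The difference stayed at -0.89 where an uninfected or IRE1 shRNA array was left out, on fewer residual degrees of freedom. The call itself sat at the threshold. It was lost in 13 of 17 alternatives, among them quantile normalisation (-0.65, adjusted p = 0.109), a fit that left out the XBP1 shRNA array of RPMI-8226 (-0.63, 0.169), and fits that left out the NT shRNA array of RPMI-8226 (-0.78, 0.291) or of JJN3 (0.180). TAP2 204769_s_at differed by -0.38 (-0.39 in JJN3, -0.38 in RPMI-8226; adjusted p = 0.355), and the mean of the 4 TAP2 probe sets by -0.35 (0.181).

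Several other members had large differences that did not pass. ERAP2 219759_at stood at 55.4% of NT shRNA (-0.85 ± 0.18, adjusted p = 0.0613), with -0.50 in JJN3 and -1.20 in RPMI-8226. The ERAP2 probe sets disagreed here: 1554272_at differed by 0.62 (0.0961) and 1554273_a_at by 0.44 (0.365), and the mean of the 5 by -0.08. NLRC5 differed by -0.67 ± 0.23 (0.230), with -0.20 in JJN3 and -1.15 in RPMI-8226. PSMB9 differed by -0.47 (0.255), with -0.54 in JJN3 and -0.40 in RPMI-8226. ERAP1 214012_at differed by 0.50 (0.361), with 0.87 in JJN3 and 0.12 in RPMI-8226. The other ERAP1 probe sets differed by -0.02 to 0.15. TAP1 differed by -0.18, with an interval of -0.60 to 0.25, and B2M 232311_at by -0.45 (-1.04 to 0.15). The other B2M probe sets, 201891_s_at and 216231_s_at, differed by 0.07 and 0.04. In all, 8 of the 26 had an unadjusted p under 0.05, against 13.7% of all probe sets. By gene, each read from its most variable probe set, the median of the 10 was -0.35 and that of all genes 0.00 to 2 decimals. Over all 26 probe sets the median was smaller, at -0.10, with 11 positive and 15 negative. The median of all probe sets was 0.00 to 2 decimals. The poly-A controls were at 0.413 on the RPMI-8226 XBP1 shRNA array and 0.242 on the RPMI-8226 NT shRNA array; their part in the result was not tested.

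In the wider pathway, HLA-E, a heavy chain that presents leader peptides to NK cell receptors, fell to 60.2% of NT shRNA (-0.73 ± 0.14, adjusted p = 0.0481; -0.68 in JJN3 and -0.78 in RPMI-8226). Its call was lost in 13 of 16 alternatives, and leaving out any 1 of the 8 arrays ended it. The difference itself lay between -0.81 and -0.65 in the alternatives. Without an uninfected or IRE1 shRNA array, which this comparison does not use, it stayed at -0.73 on fewer residual degrees of freedom. The other 4 heavy chains differed by -0.19 to 0.05. All 4 loading chaperones had negative differences and 0 of 4 passed, with UGGT1 at -0.84 (adjusted p = 0.0572) and PDIA3 at -0.70 (0.114). None of the 5 proteasome genes, 7 transcription factors, 5 peptidases or 17 interferon genes passed, nor did any marker of B, T and NK, myeloid, stromal or erythroid cells. Of the plasma cell markers PRDM1, which drives plasma cell differentiation, fell by 1.23 (adjusted p = 0.0262; 0.179 and 0.167 without the RPMI-8226 or the JJN3 NT shRNA array).

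The IRE1 shRNA arrays were set against NT shRNA in the same way. In RPMI-8226, ERN1 on the IRE1 shRNA array stood above NT shRNA but below uninfected cells. Of the 26 probe sets 0 passed (limma), against 0.0183% of all. Of all probe sets 9.47% had an unadjusted p under 0.05, and 2 of the 26 did, so this count does not set them apart. These were PSMB8 (-0.40 ± 0.15, 75.6% of NT shRNA, adjusted p = 0.436; -0.33 in JJN3 and -0.48 in RPMI-8226) and ERAP1 214012_at (-0.53, adjusted p = 0.490; -0.17 in JJN3 and -0.89 in RPMI-8226). TAP1 differed by 0.34 with an interval of -0.09 to 0.76, and almost all of it lay in JJN3 (0.59, against 0.08 in RPMI-8226). NLRC5 and B2M 232311_at had opposite signs in the lines, at 0.67 and 0.68 in JJN3 and -0.26 and -0.31 in RPMI-8226. The other B2M probe sets, 201891_s_at and 216231_s_at, differed by 0.12 and 0.09 and were positive in both lines. The other ERAP1 probe sets differed by -0.27 to 0.20. ERAP2 219759_at differed by 0.00, with an interval of -0.41 to 0.40. The JJN3 IRE1 shRNA array, highest of all 8 for TAP1, NLRC5 and B2M 232311_at, is also the one with the high hybridisation controls; their part was not tested. None of the heavy chains, chaperones or other listed pathway genes passed.

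**Figure D4:**
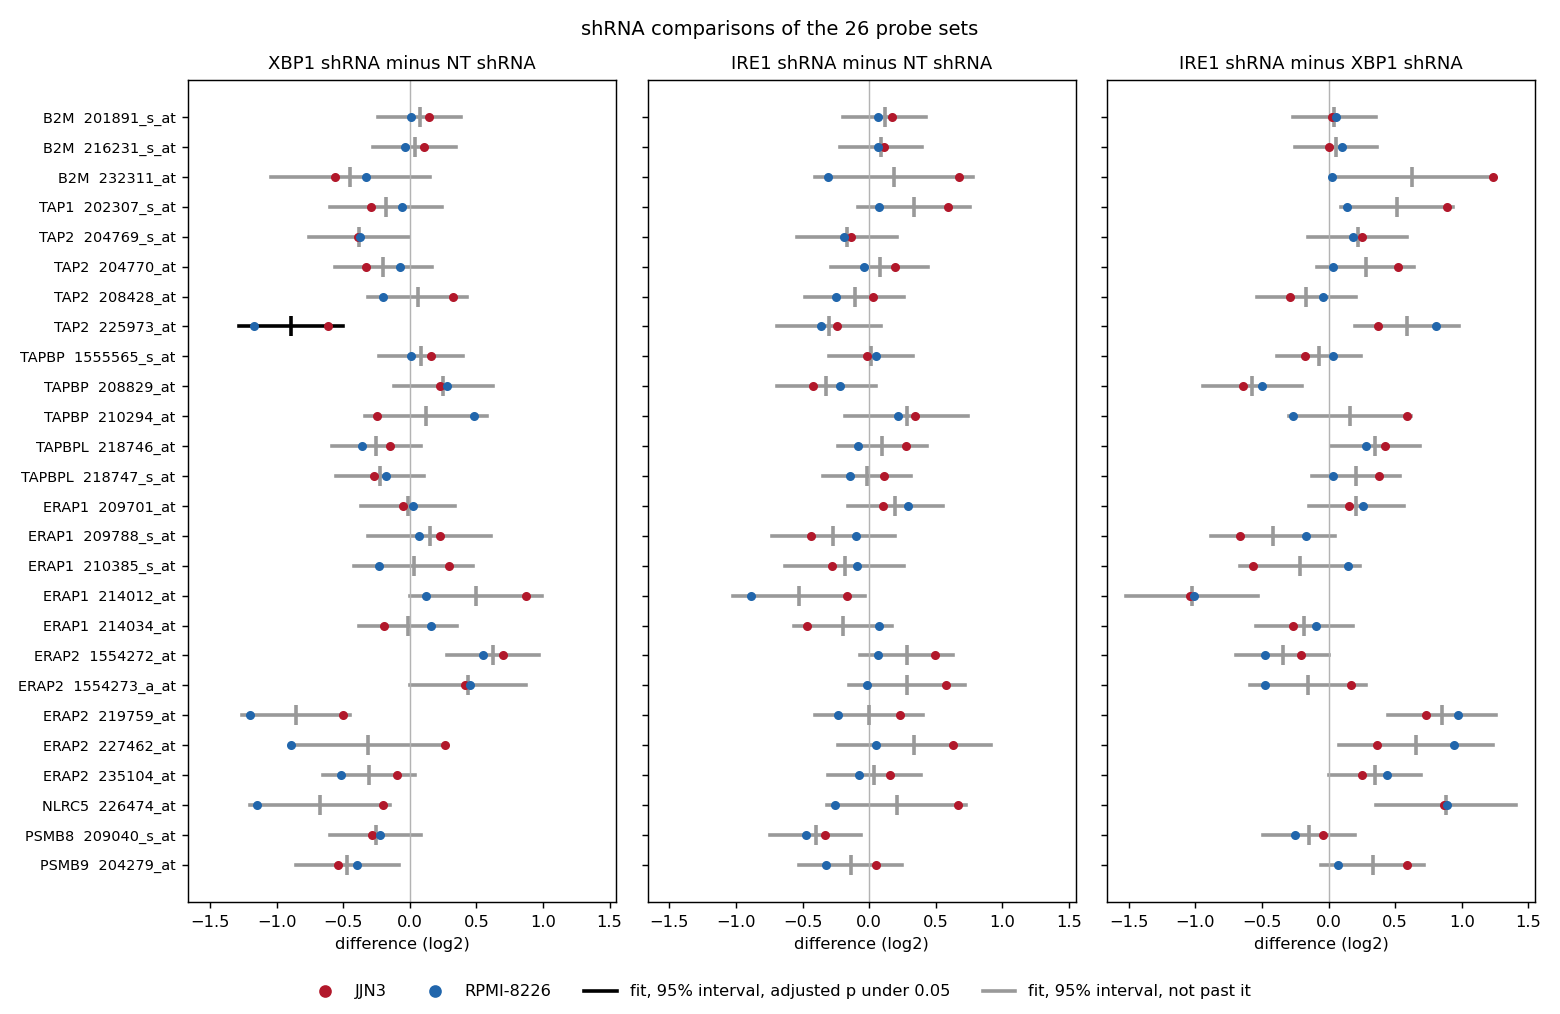
The x axes are log2 differences of the 26 probe sets for XBP1 shRNA minus NT shRNA, IRE1 shRNA minus NT shRNA and IRE1 shRNA minus XBP1 shRNA; bars are the limma estimate with its 95% interval, black where the adjusted p is under 0.05, and points are the differences within each line. TAP2 225973_at under XBP1 shRNA is the single black bar.

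IRE1 shRNA against XBP1 shRNA set the targeted cultures against each other. It shares arrays with both comparisons above, so its values are not independent of them. Of the 26 probe sets 0 passed (limma), against 1.9% of all. An unadjusted p under 0.05 was seen for 9 of the 26, against 13.7% of all probe sets. ERAP2 219759_at differed by 0.85 ± 0.18 (adjusted p = 0.0528; 0.73 in JJN3 and 0.97 in RPMI-8226; 0.27 as the mean of its probe sets), and ERAP1 214012_at by -1.02 ± 0.22 (0.0543; -1.04 in JJN3 and -1.01 in RPMI-8226; -0.33 as the mean of its probe sets). The other 4 ERAP1 probe sets differed by -0.42 to 0.21. NLRC5 differed by 0.88 ± 0.23 (0.106), at 0.87 in JJN3 and 0.89 in RPMI-8226. TAP2 225973_at differed by 0.59 (0.143), TAPBP 208829_at by -0.57 (0.136), TAP1 by 0.51 (0.246) and B2M 232311_at by 0.63 (0.328). B2M 232311_at had 1.23 in JJN3 and 0.02 in RPMI-8226. The other B2M probe sets differed by 0.04 and 0.05, those of TAPBP by -0.07 and 0.16 and those of TAP2 by -0.17 to 0.28. These ERAP2 and ERAP1 probe sets sat next to the threshold: ERAP2 219759_at passed with robust variances (0.0496), without either NT shRNA array (0.0493) and in 2 other alternatives, and ERAP1 214012_at among the probe sets with an SD at or above the median (0.0419) and adjusted over 1 probe set per gene (0.0452). Of the pathway lists RFXAP, of the RFX complex, was lower with IRE1 shRNA (-0.96, adjusted p = 0.0435). Leaving out any 1 array ended that call. Without an uninfected or NT shRNA array the RFXAP difference stayed at -0.96, on fewer residual degrees of freedom. Without the JJN3 IRE1 shRNA array RFXAP differed by -0.64. Of the plasma cell markers IRF4 and PRDM1 were higher with IRE1 shRNA than with XBP1 shRNA (1.18 and 0.96, adjusted p = 0.0289 and 0.0396), and both calls were fragile. PRDM1 lost its call when any 1 of the 8 arrays was left out and after quantile normalisation (adjusted p = 0.100). Without an uninfected or NT shRNA array its difference stayed at 0.96. IRF4 lost its call after quantile normalisation (0.0843) and without either IRE1 shRNA, XBP1 shRNA or uninfected array. Without an uninfected array the IRF4 difference stayed at 1.18.

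NT shRNA against uninfected measured virus, polybrene and a non-targeting shRNA together, which this comparison cannot tell apart. Of the 26 probe sets 0 passed, as did 0% of all probe sets, with limma; 0 of the 26 and 3044 of all 54613 had an unadjusted p under 0.05. The described probe sets differed by -0.22 (TAPBPL) to 0.25 (B2M), and the TAP1 interval was -0.50 to 0.34. With the XBP1 and IRE1 shRNA arrays pooled against NT shRNA and uninfected, 4 arrays against 4, again 0 of 26 and 0% of all passed. An unadjusted p under 0.05 was seen for 3 of the 26 and 5080 of all. This fit takes the 2 shRNAs as replicates, though they differed from each other in 1035 probe sets. Its spread holds differences between unlike treatments, so 0 calls do not show that silencing had no effect. TAP2 225973_at differed by -0.64 ± 0.18 in the pooled fit (64.3% of control, adjusted p = 0.283, with -0.47 in JJN3 and -0.81 in RPMI-8226). Whether the pooled effect differed between the lines was tested with an interaction term, which passed for 0 of 26 and 0% of all probe sets. An unadjusted p under 0.05 was seen for 0 of the 26 and 2856 of all. The spread in that fit is again one between unlike treatments. The widest of the described members were NLRC5 (0.77, interval -0.32 to 1.85) and ERAP1 (0.73, -0.50 to 1.96), so differences of that size between the lines are within the intervals.

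With the 2 lines pooled, some members moved together across the treatments. After each line's mean was taken off, the described probe sets of ERAP2 and NLRC5 had a Pearson r of 0.93 over the 8 arrays, although over all arrays, lines included, it was -0.70. TAP1 and B2M had 0.86 within lines, and TAPBPL and NLRC5 0.84. These r values pool both lines and need not hold in each. TAP1 varied mostly in JJN3 (SD 0.37, against 0.07 in RPMI-8226). In RPMI-8226, B2M 232311_at was lowest on the uninfected array (-1.52), where TAP1 was highest (-0.35). TAPBP had -0.83 with TAP1 and -0.81 with NLRC5 within lines, but 0.64 with ERAP1 and 0.47 with PSMB8. Over all arrays TAP1 and TAPBP had 0.51. These are descriptions over 8 arrays that share 2 lines and 4 treatments, and only 6 of the 8 values are free once the line means are off. The 5 genes most like TAP1 by this measure, taken from all 19775, were LINC01711 (0.99), FMNL2, WNK3, TGFBR2 and MSC (0.98 to 0.99). All 5 were highest on the JJN3 IRE1 shRNA array and lowest on the JJN3 XBP1 shRNA array, as TAP1 was relative to its line's mean. They were picked for their likeness to TAP1 on these arrays, so this shared order follows from the choice.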

How the data were processed

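RNA from 8 cultures was measured on Affymetrix arrays. Per the submitters' processing notes the authors processed the signals with RMA; the version, log base and centring are not given in the sources used here. The deposited values were taken as log2, the scale RMA returns. Each probe set had a median of 0 over the 8 arrays (largest deviation 5e-07), and values ran from -5.73 to 5.45. The tests used limma 3.58.1 under R 4.3.3 (lmFit, eBayes, two-sided) and ran on the 54613 probe sets that are no array controls, without a filter on low values, with Benjamini-Hochberg adjustment over all of them and a threshold of 0.05. No 2 arrays were identical (0 pairs).

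Treatments were compared in 1 fit of all 8 arrays with the cell line as block, which the labels give as the pairing (replicate 1 is RPMI-8226, replicate 2 is JJN3); 3 residual degrees of freedom remain. The XBP1, IRE1 and NT comparisons share arrays. The lines were compared with treatment as block. Errors are standard errors, and intervals are 95% intervals of the fit.

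Of the probe sets, 41097 had a single symbol, 1801 several and 11777 none. Every member was named with all its probe sets and described by the one of largest SD. Listed genes were named where they passed, or were the highest or lowest of their list. The members, lists and tests were chosen with earlier results of these data known. Promoters are from RefSeq, GRCh38.p14; NLRC5 was not analysed there. Listed genes without a probe set of their own were not analysed here. The fits were tested on simulated data.

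Alternatives were further normalisation (quantile, cyclic loess, array medians), robust variances, only probe sets with an SD at or above the median, 1 probe set or the mean of probe sets per gene, no block, uninfected cells as control, and each array left out in turn.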

Additional observations from a re-analysis of the deposited data

Results flagged for a closer look

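In 52 groups of 4 arrays (26 probe sets in each line), 3 held an array far from the other 3 by Dixon's ratio, a rule by which chance flags about 1 in 20 groups. All 3 were XBP1 shRNA arrays. ERAP1 214012_at stood at 1.60 on the JJN3 XBP1 shRNA array, with the other 3 arrays of that line at 0.56 to 0.73. ERAP2 227462_at stood at 0.46 on the RPMI-8226 XBP1 shRNA array, where the others lay between 1.35 and 1.42. ERAP2 235104_at stood at 0.54 on the same array, where the others lay between 0.98 and 1.06. The ERAP2 probe sets are of 1 gene and 1 array, so they do not count as separate observations. The poly-A controls of that array were at 0.413, the highest of the 8; their part was not tested.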

How the results depend on the processing

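No probe set with an unadjusted p under 0.05 changed its sign in any alternative (0 reversed). Of those with a larger p, 10 of 18 changed sign in at least 1 alternative for XBP1 shRNA minus NT shRNA, 13 of 24 for IRE1 shRNA minus NT shRNA, 6 of 17 for IRE1 shRNA minus XBP1 shRNA and 4 of 6 for JJN3 minus RPMI-8226. For XBP1 shRNA minus NT shRNA, 1 member gene was called, and 0 were after quantile normalisation, cyclic loess, with array medians taken off, among probe sets with an SD at or above the median, with the mean of probe sets, and with no replicate block, the cell line left out of a fit whose arrays it pairs. Leaving out each array gave 0 to 1. For IRE1 shRNA minus XBP1 shRNA 0 were called, with 1 under robust variances, 2 among probe sets with an SD at or above the median, 2 with 1 probe set per gene, and 0 to 1 leaving out each array. Without the block 0 were called in that comparison too. Over all probe sets, XBP1 shRNA minus NT shRNA called 660, with 345 after quantile normalisation, 275 with the mean of probe sets, 436 with 1 probe set per gene, 1151 against uninfected cells, 0 with no replicate block, and 0 (without RPMI-8226 NT shRNA) to 342 leaving out each array. IRE1 shRNA minus NT shRNA called 10 (0 to 38 in the alternatives). IRE1 shRNA minus XBP1 shRNA called 1035, with 452 after quantile normalisation, 297 with the mean of probe sets, 657 with 1 probe set per gene, 0 without the block and 1 to 755 leaving out each array. Silenced minus control called 0, with 14 after quantile normalisation and 0 to 47 leaving out each array. JJN3 minus RPMI-8226 called 12439 higher and 18163 lower, against 13653 and 11959 after cyclic loess, 13741 and 13427 with array medians taken off and 13180 and 13872 after quantile normalisation; it called 13632 with 1 probe set per gene and 12993 with their mean, where fewer features were tested. Except where given, the cause of a lost call was not tested. Centred values hold no signal over background, so dim probe sets could not be set apart, and 2 arrays a treatment limit the precision.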
